A study of Mus musculus with 9 samples.

Results

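The genes described here carry out glycolysis, glucose and lactate transport and glycogen turnover. Many of them exist as a muscle or heart form beside a form used in most cells or in another tissue. Of 37 genes listed for these steps, 34 had a probe set of their own symbol and were measured, out of 18194 genes on the arrays. Gpi1, Eno1 and Pfkfb1 were not analysed here. Where a gene had several probe sets, the one with the highest mean over the 9 arrays stood for it, and Gapdh was read from the control probe sets of the array, the ones that carried its symbol alone. All 34 measured genes also passed the filter on low values that left 12560 genes to test.

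The arrays held 3 groups of 3 mouse samples, named as biological replicates by their submitters. CiCM, chemically induced cardiomyocyte-like cells, were made from mouse embryonic fibroblasts with 10 µM CHIR99021, 10 µM RepSox, 50 µM forskolin, 0.5 mM VPA, 5 µM Parnate and 1 µM TTNPB, and beating clusters were picked on day 24. CM were cardiomyocytes taken from mouse hearts, with no age, strain or purification given. MEF, the starting fibroblasts, came from C57BL/6 embryos at embryonic day 13.5. The CiCM samples are therefore selected clusters, set against isolated heart cells and isolated fibroblasts, and the treatment field of the labels reads the same for all samples.

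Glycolysis splits glucose to pyruvate and yields ATP without oxygen, and several of its steps are run by enzymes encoded by more than one gene. Adult heart muscle takes up glucose through an insulin-responsive carrier, exchanges lactate with the blood and oxidises it, while dividing embryonic cells commonly release lactate. Striated muscle also stores glucose as glycogen and breaks it down with its own phosphorylase when it contracts.

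The markers of the samples bear on every result that follows. Sums of linear signals over each marker list are given on the log2 scale. The cardiomyocyte list summed to between 15.53 and 15.55 in CiCM, between 18.48 and 18.64 in CM and between 9.22 and 9.59 in MEF. Of its 11 genes, 7 had a mean at or above 6.58, the median of the whole table, in CiCM, 11 in CM and 3 in MEF. In CiCM Tnni3, Myl7, Ryr2 and Pln were below that line, and Nppa, at 6.64, was just above it and not called against MEF. The skeletal muscle list summed to between 17.22 and 17.39 in CiCM, between 13.98 and 15.01 in CM and between 8.11 and 8.80 in MEF. All 12 of its genes, Myod1 and Myog among them, were at or above that line in CiCM, against 2 in CM and 1 in MEF. CiCM therefore carried the skeletal muscle markers together with part of the cardiac set. All 9 fibroblast markers were at or above the line in each group, with sums between 16.88 and 16.94 in CiCM, 15.56 and 15.91 in CM, and 16.92 and 16.94 in MEF. All 6 endothelial markers were above it in CM, none in CiCM and 1 in MEF. Macrophage markers summed to between 12.05 and 12.83 in CiCM, between 13.81 and 14.44 in CM and between 14.84 and 14.98 in MEF. CiCM had all 9 of them called lower against MEF, at a median of -2.62, and 5 were at or above the line in CiCM, 8 in CM and 9 in MEF. Dividing-cell markers summed to between 8.41 and 8.89 in CiCM, between 9.93 and 10.59 in CM and between 13.18 and 13.36 in MEF. Genes of the atrium and of fat were far higher on CM replicate 1 than on the remaining CM arrays. It had Myl7, the atrial light chain, at 15.05, against 9.25 and 5.98, and Nppa, the atrial natriuretic peptide, at 15.24, against 12.50 and 12.05. It also had Adipoq, a fat cell hormone, at 13.50, against 6.21 and 5.09, and Cidec, a lipid droplet protein, at 10.70, against 1.81 and 0.0. The part of these other cell types, regions and states in the differences below was not tested, and in such bulk samples fewer cells of a type and less RNA per cell cannot be told apart.

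Values are log2 signals, on which a difference of 1 is a doubling, and a gene was called higher or lower at a limma adjusted p under 0.05 with a log2 difference of at least 1. In CiCM against MEF, 12 of the 34 genes were called higher and 5 lower, where 11.6% and 12.2% of all tested genes were. The arrays of CiCM and MEF did not overlap for 30 of the 34, against 68.5% of all tested genes, and 11 of these lay below MEF, against 36.4%. In CM against MEF 18 were called higher and 5 lower, where 22.1% and 21.8% of all tested genes were, which makes 23 calls in all, against 43.9%. The CM and MEF arrays did not overlap for 29, against 75.2%, and 6 of these lay below MEF, against 38.7%. In CiCM against CM 2 were called higher and 10 lower, where 16.5% and 19.0% of all tested genes were, and 23 did not overlap, against 67.9%. The median difference of the 34 genes was 0.64, 1.18 and -0.51 in these 3 comparisons, and that of all tested genes was -0.03 in each. The total of calls in CiCM against CM, 35.3% of the members, was close to the 35.5% of all tested genes.

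**Figure D1:**
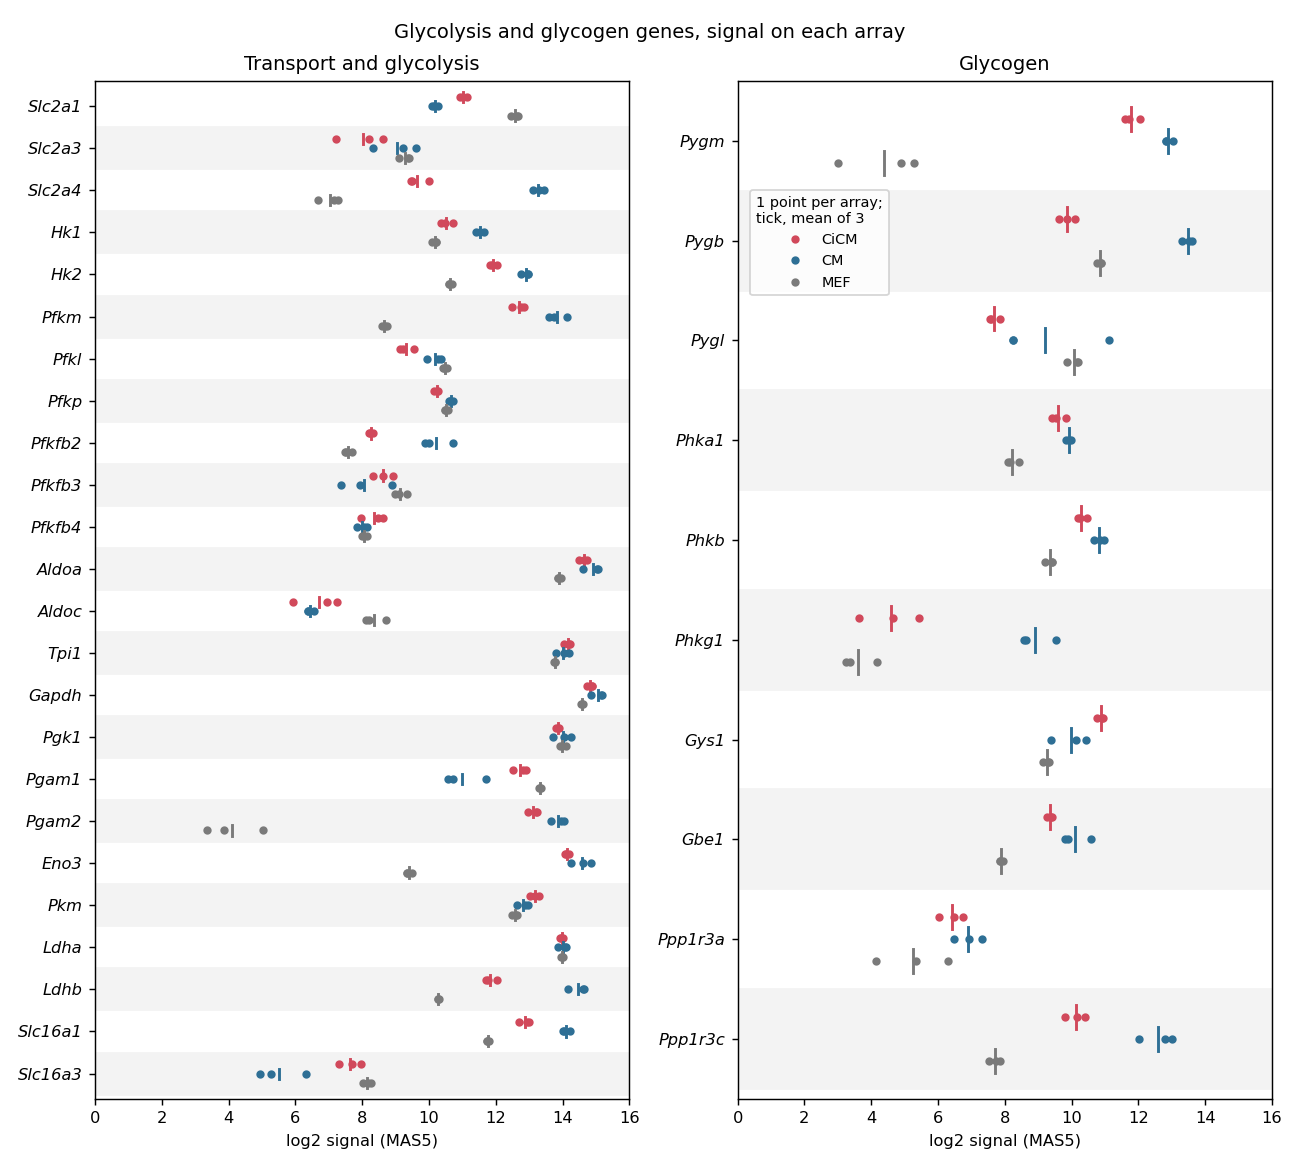
Log2 signal (horizontal axis) of the 34 genes, with 1 point per array and a tick at the mean of 3 arrays for CiCM, CM and MEF, transport and glycolysis on the left and glycogen on the right. Pgam2 and Pygm lie at 3.01 to 5.28 on the MEF arrays and above 11 on every CiCM and CM array, while Ldha, Pgk1 and Gapdh lie close together in all groups.

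The 10 muscle or heart forms made up 8 of the 12 genes called higher in CiCM and 10 of the 18 called higher in CM. In CiCM against MEF 8 of the 10 were called higher and none lower, with a median difference of 2.08. Aldoa and Pfkfb2 were the uncalled ones, at 0.74 and 0.69, and Aldoa had a mean signal of 13.89 in MEF already. In CM against MEF all 10 were called higher, with a median of 4.68. The 11 general forms are the partners of those 10, and Aldoc, Pygb, Pygl, Pfkl and Pfkp are named for brain, liver or platelets. Of the 11, none was called higher and 4 (Slc2a1, Pfkl, Aldoc and Pygl) were called lower in CiCM against MEF, with a median of -0.59. In CM against MEF 2 were called higher and 5 lower, with a median of -0.87. The 13 remaining genes, which have no tissue partner in the list, included 4 called higher and 1 lower in CiCM against MEF, and 6 called higher and none lower in CM against MEF. The muscle genes Phka1, Phkg1, Gys1 and Ppp1r3a are counted here and not among the 10. In CiCM against MEF Phka1 and Gys1 were called higher, while Phkg1 (0.98) and Ppp1r3a (1.16) were not called.

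Glucose entry differed by carrier. Slc2a4, the insulin-responsive glucose carrier of muscle and fat, had log2 signals of 9.49, 9.45 and 10.00 on the CiCM arrays, 13.11, 13.28 and 13.43 on the CM arrays, and 7.26, 7.16 and 6.68 on the MEF arrays. The 3 groups did not overlap, and CiCM lay between CM and MEF. Its difference was 2.61 ± 0.19 in CiCM against MEF (SE, limma adjusted p = 1.29e-06), 6.24 ± 0.19 in CM against MEF (adjusted p = 9.97e-10) and -3.63 ± 0.19 in CiCM against CM (adjusted p = 8.05e-08). Fat cells also use this carrier, and the adipocyte markers summed to between 7.37 and 8.50 in CiCM, 15.21 and 15.49 in CM, and 10.99 and 11.11 in MEF. The largest part of the CM sum was Fabp4, which is also made by endothelial cells, at a mean of 15.15, and the defining fat genes Adipoq and Cidec were above the line on CM replicate 1 alone. Without that array the Slc2a4 difference was 6.32 in CM against MEF and -3.71 in CiCM against CM. The part of fat cells in the Slc2a4 differences was not tested.

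Slc2a1, the carrier that supplies most cells with basal glucose, ran the opposite way. It had 10.93, 11.15 and 11.01 in CiCM, 10.26, 10.14 and 10.09 in CM, and 12.46, 12.66 and 12.64 in MEF. CiCM again lay between the other groups without overlap, here with MEF highest. The fall was -1.56 ± 0.10 in CiCM (limma adjusted p = 4.17e-07) and -2.42 ± 0.10 in CM (adjusted p = 5.91e-09), both against MEF. In CiCM against CM the difference of 0.86 (adjusted p = 1.79e-05) stayed under the size asked for a call.

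Slc2a3, a high-affinity carrier best known from neurons, had 7.22, 8.22 and 8.62 in CiCM, 9.22, 8.33 and 9.62 in CM, and 9.10, 9.36 and 9.40 in MEF. The CiCM and CM arrays overlapped, and the spread within each of these groups was wide. It was called lower in CiCM than in MEF by -1.27 ± 0.37 (limma adjusted p = 0.0156), a call that ended without CiCM replicate 1 (-0.87, adjusted p = 0.0551) and with a larger constant added to the linear signals (-0.93). The call against CM, at -1.04 ± 0.37 (adjusted p = 0.0314), ended under most alternatives, with values down to -0.38 for the mean over probe sets (adjusted p = 0.402).

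Hexokinases trap glucose inside the cell by phosphorylation. Hk2, the insulin-regulated hexokinase of muscle, had 11.82, 11.87 and 12.02 in CiCM, 12.76, 12.96 and 12.96 in CM, and 10.60, 10.60 and 10.67 in MEF. The groups did not overlap, and both muscle-like groups were called higher than MEF, CiCM by 1.28 ± 0.09 (limma adjusted p = 9.94e-07) and CM by 2.27 ± 0.09 (adjusted p = 5.75e-09). Hk1, the hexokinase of most tissues, had 10.37, 10.48 and 10.72 in CiCM, 11.53, 11.39 and 11.64 in CM, and 10.22, 10.08 and 10.22 in MEF. CM lay above both other groups, with a call against MEF of 1.35 ± 0.11 (adjusted p = 1.29e-06) that was 0.98 with arrays centred on their medians and 0.55 after levelling on the hybridisation controls, neither large enough for a call. The CiCM difference from MEF was 0.35 (adjusted p = 0.0226) and was not called.

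Phosphofructokinase commits sugar to glycolysis as a tetramer of muscle, liver and platelet subunits. Pfkm, the muscle subunit, had 12.49, 12.75 and 12.85 in CiCM, 13.60, 13.74 and 14.12 in CM, and 8.73, 8.67 and 8.59 in MEF. CiCM and CM were both far above MEF and did not overlap each other. The differences were 4.04 ± 0.14 in CiCM against MEF (limma adjusted p = 6.22e-09), 5.16 ± 0.14 in CM against MEF (adjusted p = 4.43e-10) and -1.12 ± 0.14 in CiCM against CM (adjusted p = 4.01e-05). The last was not called after quantile normalization (-0.90), centring on array medians (-0.81) or levelling on the hybridisation controls (-0.55), nor without CM replicate 3 (-0.97).

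Pfkl, the liver subunit, had 9.13, 9.55 and 9.23 in CiCM, 10.36, 9.95 and 10.26 in CM, and 10.53, 10.44 and 10.43 in MEF. CiCM was the low group, called below MEF by -1.17 ± 0.14 (limma adjusted p = 5.64e-05), or by -0.96 and not called with the mean over its probe sets. CM was not called against MEF (-0.28, adjusted p = 0.0973). Pfkp, the platelet subunit, averaged 10.23 ± 0.06 in CiCM, 10.65 ± 0.05 in CM and 10.50 ± 0.05 in MEF (SD, n = 3) and was called in no comparison. A second Pfkp probe set was lower by -1.05 in CiCM and -1.81 in CM than in MEF, so the probe sets of this gene did not move alike.

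The Pfkfb enzymes make and remove the sugar phosphate that activates phosphofructokinase. Pfkfb2, the heart form, had 8.24, 8.21 and 8.33 in CiCM, 9.88, 10.71 and 10.00 in CM, and 7.70, 7.49 and 7.52 in MEF. The 3 groups were apart in that order of CM, CiCM and MEF. CM was called above MEF by 2.63 ± 0.20 (limma adjusted p = 7.8e-07) and CiCM below CM by -1.94 ± 0.20 (adjusted p = 1.28e-05), while the CiCM difference from MEF, 0.69 ± 0.20 (adjusted p = 0.0155), was too small for a call. With the mean over its probe sets the first was 1.05, still called, and the second -0.91, not called. Pfkfb3, an inducible form whose kinase activity prevails, had 8.61, 8.31 and 8.93 in CiCM, 8.88, 7.35 and 7.93 in CM, and 9.34, 8.98 and 9.09 in MEF. Its CM arrays spread over 1 array near the MEF level and a pair below it. The call against MEF, -1.08 ± 0.33 (adjusted p = 0.0132), ended without CM replicate 2 (-0.73), without MEF replicate 1 (-0.98), with 32 added (-0.98) and with the mean over probe sets (-0.77). Pfkfb4, a further form, was called nowhere and had 7.97, 8.62 and 8.48 in CiCM, 7.83, 8.14 and 8.04 in CM, and 8.06, 8.14 and 7.99 in MEF.

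Aldolase splits the sugar phosphate into smaller units. Aldoa, its muscle form, had 14.49, 14.73 and 14.65 in CiCM, 14.60, 15.06 and 15.04 in CM, and 13.85, 13.88 and 13.94 in MEF. CiCM and CM overlapped, and both lay above MEF. CM was called against MEF at 1.01 ± 0.12 (limma adjusted p = 2.81e-05), and the call ended in each other scaling, with 0.57, 0.64 and 0.21 after quantile normalization, centring and levelling on controls. It also ended without CM replicate 2 (0.93), CM replicate 3 (0.94) or MEF replicate 1 (0.99). Aldoc, the brain form, had 6.93, 7.24 and 5.92 in CiCM, 6.56, 6.37 and 6.37 in CM, and 8.21, 8.11 and 8.70 in MEF. It was called lower in CiCM by -1.64 ± 0.34 (adjusted p = 0.00234) and in CM by -1.90 ± 0.34 (adjusted p = 0.000514), with the CM mean under the line. The CiCM call ended with a larger constant added (-0.94).

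The phosphoglycerate mutase genes gave the widest shift of balance between CM and MEF among the pairs of forms. The 250 bases before their transcription starts are shown because Pgam2 and Pgam1 parted by more than any other pair in CM, together with those of Pygm and Pygb, the pair whose balance differed in the other direction between CiCM and CM. The sequences are those of RefSeq on GRCm38.p6, read 5′ to 3′ along the gene, at chr11:5803797-5804046 (minus strand) for Pgam2, chr19:41911621-41911870 (plus strand) for Pgam1, chr19:6384158-6384407 (plus strand) for Pygm and chr2:150786546-150786795 (plus strand) for Pygb. Capitals mark matches on either strand to the MEF2 consensus, to the muscle E-box forms CAGCTG and CAGGTG, and to ACGTG, the core letters bound by HIF-1, or its reverse complement.
Pgam2: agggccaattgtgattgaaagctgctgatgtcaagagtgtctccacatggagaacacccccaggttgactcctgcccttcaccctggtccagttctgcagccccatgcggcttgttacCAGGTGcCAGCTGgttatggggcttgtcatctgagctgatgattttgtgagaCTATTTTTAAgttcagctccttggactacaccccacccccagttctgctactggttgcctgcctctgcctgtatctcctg
Pgam1: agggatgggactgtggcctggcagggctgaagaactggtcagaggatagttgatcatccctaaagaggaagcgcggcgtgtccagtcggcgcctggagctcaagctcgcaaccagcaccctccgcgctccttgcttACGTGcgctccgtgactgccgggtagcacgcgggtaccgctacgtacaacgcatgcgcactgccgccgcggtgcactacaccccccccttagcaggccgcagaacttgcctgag
Pygm: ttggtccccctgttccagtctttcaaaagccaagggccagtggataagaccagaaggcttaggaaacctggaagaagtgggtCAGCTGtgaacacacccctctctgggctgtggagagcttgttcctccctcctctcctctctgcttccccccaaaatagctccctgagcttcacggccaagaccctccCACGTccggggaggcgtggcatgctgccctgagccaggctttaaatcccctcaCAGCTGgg
Pygb: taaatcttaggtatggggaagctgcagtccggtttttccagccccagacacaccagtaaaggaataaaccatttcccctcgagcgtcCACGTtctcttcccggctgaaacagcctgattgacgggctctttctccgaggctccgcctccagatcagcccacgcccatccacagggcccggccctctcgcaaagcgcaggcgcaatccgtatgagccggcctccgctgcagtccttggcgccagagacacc
In the Pgam2 window the MEF2 consensus began 80 bases, CAGCTG 125 bases and CAGGTG 132 bases before the start. The Pygm window held CAGCTG at 168 and 8 bases and an ACGTG core at 61 bases, and the Pgam1 and Pygb windows held the core alone, at 114 and 163 bases. Windows of the same length were given for 32851 starts in all and for 52 starts of 35 of the listed genes, those without one being Slc2a3 and Slc2a4. The MEF2 consensus was found in 2.92% of all windows and in 3 of the 52, CAGCTG in 13.0% and in 10, CAGGTG in 17.2% and in 7, and the ACGTG core in 16.6% and in 20. Some ACGTG matches overlap each other in the palindrome CACGTG, and each window was counted once. Windows of the same gene can overlap, as do those of Aldoa that hold the same ACGTG site at 126 and 202 bases. By gene, the counts in this order were 3, 10, 6 and 16 of the 35. They include genes not measured here, such as Pfkfb1 among the 3. A match describes letters in this window only.

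Pgam2, the muscle mutase, had 12.96, 13.23 and 13.19 in CiCM, 13.65, 13.94 and 14.04 in CM, and 5.04, 3.37 and 3.85 in MEF. CiCM and CM both stood far above MEF, whose values lie under the line where low signals scatter. The difference was 9.04 ± 0.33 in CiCM against MEF (limma adjusted p = 1.09e-08) and 9.79 ± 0.33 in CM against MEF (adjusted p = 2.15e-09). With 32 added to the linear signals, which damps low values, they were 7.48 and 8.22. CiCM was below every CM array, by -0.75 ± 0.33 (adjusted p = 0.0702), with an interval from -1.49 to -0.01 before adjustment. With 32 added this difference was -0.75 (adjusted p = 0.00159), under the size for a call, so neither fit gave a call between them. Pgam1, the mutase of most cells, had 12.89, 12.82 and 12.50 in CiCM, 11.71, 10.72 and 10.56 in CM, and 13.30, 13.33 and 13.35 in MEF. It was low in CM, by -2.33 ± 0.24 against MEF (adjusted p = 8.81e-06), and it was 1 of the 2 genes called higher in CiCM than in CM, by 1.74 ± 0.24 (adjusted p = 0.000113). The CiCM difference from MEF was -0.59 (adjusted p = 0.0669).

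Eno3, the muscle enolase, had 14.06, 14.09 and 14.20 in CiCM, 14.26, 14.62 and 14.83 in CM, and 9.34, 9.34 and 9.48 in MEF. CiCM and CM stood well above MEF, by 4.73 ± 0.13 (limma adjusted p = 1.48e-09) and 5.18 ± 0.13 (adjusted p = 2.96e-10). Between CiCM and CM the difference of -0.45 ± 0.13 (adjusted p = 0.0101) was under the size for a call and was 0.12 after levelling on the hybridisation controls.

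On the chosen probe sets, the steps served here by a single gene stayed within narrow limits. Any splice forms of a gene, Pkm included, were not told apart. Tpi1, Gapdh, Pgk1 and Pkm, which encode triose phosphate isomerase, the dehydrogenase that follows it, phosphoglycerate kinase and pyruvate kinase, were called in no comparison. In CiCM against MEF their differences were 0.39, 0.25, -0.14 and 0.59, and in CM against MEF 0.25, 0.48, 0.01 and 0.24. The signs of all 4 turned in CM against MEF after levelling on the hybridisation controls, with -0.55, -0.32, -0.79 and -0.56. Pgk1 also had a probe set that was lower by -2.15 in CM than in MEF, beside its highest one at 0.01.

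Lactate dehydrogenase interconverts pyruvate and lactate. Ldha, the form of most glycolytic cells, had 13.93, 13.96 and 14.01 in CiCM, 13.85, 14.11 and 14.07 in CM, and 13.98, 14.00 and 13.95 in MEF. The groups overlapped throughout. The difference from MEF was -0.01 in CiCM (interval -0.19 to 0.17, limma adjusted p = 0.934) and 0.04 in CM (interval -0.15 to 0.22, adjusted p = 0.703). In CM it was -0.38 after quantile normalization, -0.33 with arrays centred on their medians and -0.77 after levelling on the controls.

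Ldhb, the heart form, had 11.70, 11.77 and 12.02 in CiCM, 14.17, 14.64 and 14.60 in CM, and 10.31, 10.27 and 10.26 in MEF. All 3 groups were apart, with CiCM nearer to MEF than to CM. The difference was 1.55 ± 0.13 in CiCM against MEF (limma adjusted p = 4.05e-06), 4.19 ± 0.13 in CM against MEF (adjusted p = 1.15e-09) and -2.64 ± 0.13 in CiCM against CM (adjusted p = 5.77e-08).

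Monocarboxylate carriers move lactate across the membrane. Slc16a1, the carrier of oxidative muscle and heart, had 12.71, 12.94 and 13.00 in CiCM, 14.01, 14.21 and 14.05 in CM, and 11.79, 11.73 and 11.74 in MEF. The groups did not overlap, CiCM being higher than MEF by 1.12 ± 0.09 (limma adjusted p = 4.02e-06), which was 0.90 and not called after levelling on controls, and lower than CM by -1.21 ± 0.09 (adjusted p = 1.41e-06). The call against CM ended in each other scaling, at -0.93, -0.90 and -0.63 after quantile normalization, centring and levelling on controls. Slc16a3, the lactate exporter of strongly glycolytic cells, had 7.29, 7.96 and 7.69 in CiCM, 5.28, 6.32 and 4.95 in CM, and 8.03, 8.19 and 8.26 in MEF. It was low in CM and under the line there. CiCM was called above CM by 2.13 ± 0.36 (adjusted p = 0.000383) and did not differ from MEF by enough for a call (-0.51, adjusted p = 0.253). With 32 added to the linear signals the CiCM difference from CM was 1.55, and with a larger constant 0.90, not called.

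Glycogen phosphorylases release glucose units from glycogen, and their 3 forms had 3 different orders of groups. Pygm, the muscle form, had 11.58, 11.72 and 12.04 in CiCM, 12.82, 12.83 and 13.04 in CM, and 3.01, 4.88 and 5.28 in MEF. CiCM and CM were far above MEF, whose signals lie under the line, by 7.39 ± 0.46 (limma adjusted p = 4.57e-07) and 8.50 ± 0.46 (adjusted p = 5.21e-08). With 32 added these were 5.99 and 7.10. CiCM was below every CM array, by -1.12 ± 0.46 (adjusted p = 0.0519), a difference called with 32 added (-1.11, adjusted p = 0.00034).

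Pygb, the brain form, which heart muscle also makes, had 10.10, 9.87 and 9.63 in CiCM, 13.32, 13.52 and 13.61 in CM, and 10.75, 10.89 and 10.88 in MEF. CM was the high group here and CiCM the low one. CM exceeded MEF by 2.64 ± 0.12 (limma adjusted p = 2.01e-08), and CiCM was below CM by -3.61 ± 0.12 (adjusted p = 7.05e-09). CiCM was also below every MEF array, by -0.97 ± 0.12 (adjusted p = 8.69e-05), just under the size for a call, and was called with centring (-1.03), with levelling on controls (-1.20), without MEF replicate 1 (-1.02) and without CiCM replicate 1 (-1.09).

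Pygl, the liver form, had 7.59, 7.85 and 7.56 in CiCM, 11.10, 8.26 and 8.23 in CM, and 10.19, 9.86 and 10.16 in MEF. The single high CM array was replicate 1, the one with high fat and atrial genes, which also had the highest macrophage marker sum of the CM arrays, 14.44. The part of these cells and of the heart region in the Pygl value was not tested. CiCM was called below MEF by -2.40 ± 0.61 (limma adjusted p = 0.00731). The macrophage markers moved the same way in this comparison, with all 9 lower and a median of -2.62, and their part in the Pygl difference was not tested. The CM difference from MEF was -0.87 (adjusted p = 0.224) with all arrays and -1.82 (adjusted p = 2.3e-06), called, without CM replicate 1. The CiCM call against CM, -1.53 ± 0.61 (adjusted p = 0.0473), was -0.58 (adjusted p = 0.00937), and not called, without that array, and it ended under most other alternatives.

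Phosphorylase kinase switches phosphorylase on, and its subunits moved unequally. Phkg1, the catalytic subunit of muscle, had 5.44, 3.65 and 4.65 in CiCM, 9.52, 8.57 and 8.62 in CM, and 4.18, 3.24 and 3.36 in MEF. The CiCM and MEF arrays overlapped under the line, and CM alone was above it. CM exceeded MEF by 5.31 ± 0.58 (limma adjusted p = 1.26e-05), and CiCM was below CM by -4.32 ± 0.58 (adjusted p = 8.41e-05), or 3.53 and -3.15 with 32 added. Its second probe set gave 7.65 and -4.81 for these comparisons. Phka1, the regulatory alpha subunit of muscle, had 9.43, 9.54 and 9.84 in CiCM, 9.93, 9.83 and 9.98 in CM, and 8.08, 8.15 and 8.42 in MEF. On this probe set CiCM and CM overlapped, and both were called above MEF, by 1.39 ± 0.14 (adjusted p = 1.91e-05) and 1.69 ± 0.14 (adjusted p = 1.5e-06). On the other Phka1 probe sets CiCM lay below every CM array, by -1.15 and -0.70. The CiCM call ended with the mean over probe sets (0.95), and the CM call after levelling on controls (0.89). Phkb, the beta subunit, averaged 10.29 in CiCM, 10.83 in CM and 9.35 in MEF, and was called in CM against MEF at 1.48 ± 0.12 (adjusted p = 8.3e-07), which was 0.67 and not called after levelling.

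On the side of synthesis, Gys1, the glycogen synthase of muscle, had 10.76, 10.90 and 10.95 in CiCM, 10.14, 9.38 and 10.43 in CM, and 9.15, 9.33 and 9.30 in MEF. CiCM was the high group, above every array of both other groups. It was called against MEF at 1.61 ± 0.22 (limma adjusted p = 0.00014) and was 0.88 above CM (adjusted p = 0.00468), under the size for a call. CM was 0.72 above MEF (adjusted p = 0.0124), also not called. A second Gys1 probe set was higher by 1.32 in CiCM than in CM and lower by -0.40 in CM than in MEF. The probe sets thus differed in sign in CM against MEF. Gbe1, the branching enzyme, had 9.38, 9.41 and 9.27 in CiCM, 10.58, 9.80 and 9.90 in CM, and 7.84, 7.86 and 7.93 in MEF. It was called higher than MEF in CiCM by 1.48 ± 0.19 (adjusted p = 8.31e-05) and in CM by 2.22 ± 0.19 (adjusted p = 1.5e-06).

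Glycogen-targeting subunits bring protein phosphatase to the glycogen particle. Ppp1r3c, a broadly made one, had 9.79, 10.16 and 10.40 in CiCM, 12.99, 12.78 and 12.03 in CM, and 7.85, 7.75 and 7.52 in MEF. The groups were apart, with CiCM in the middle. CiCM exceeded MEF by 2.41 ± 0.24 (limma adjusted p = 1.33e-05) and was below CM by -2.48 ± 0.24 (adjusted p = 6.23e-06), and CM exceeded MEF by 4.89 ± 0.24 (adjusted p = 2.44e-08). Ppp1r3a, the striated muscle subunit, had 6.49, 6.02 and 6.74 in CiCM, 6.49, 6.93 and 7.30 in CM, and 4.13, 5.35 and 6.30 in MEF. These signals lie around the line, and the CiCM and MEF arrays overlapped. It was called in CM against MEF at 1.65 ± 0.54 (adjusted p = 0.0189), a call that ended with a larger constant added to the signals (0.54), after quantile normalization (1.28), without MEF replicate 1 (1.08) and without CM replicate 3 (1.45). In CiCM against MEF the difference of 1.16 (adjusted p = 0.0971) was called without MEF replicate 3 (1.68, adjusted p = 0.0247).

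**Figure D2:**
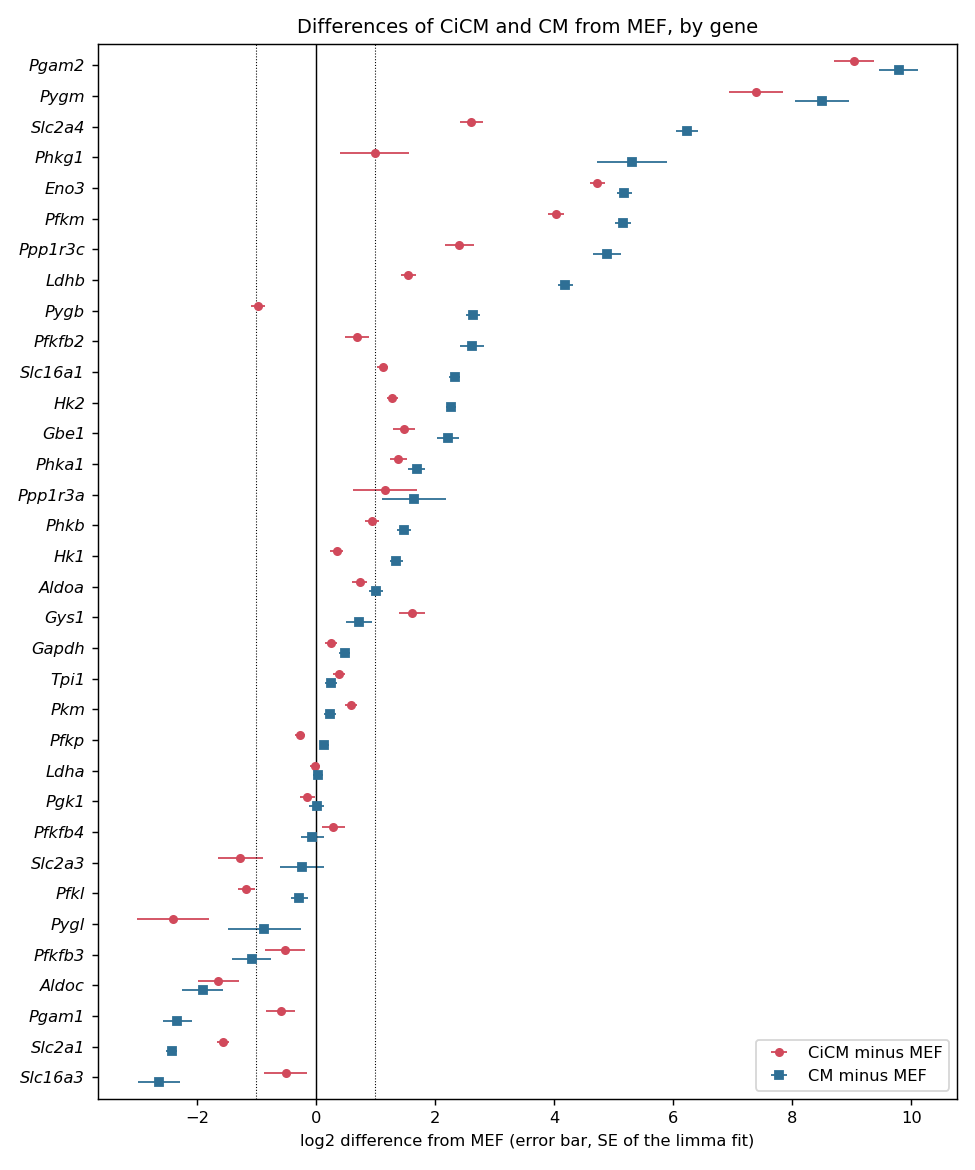
Log2 difference from MEF (horizontal axis, with the SE of the limma fit as error bar) of the 34 genes in CiCM and in CM, with dotted lines at -1 and 1, the size asked for a call. Pgam2, Pygm, Eno3 and Pfkm are the genes above 4 in both, while Pygb is at -0.97 in CiCM and 2.64 in CM.

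The balance between a muscle or heart form and its general partner was taken within each array, as the difference of the log2 signals, so that array-wide scaling cancels. Signals of different probe sets cannot be compared as levels, and the change of this difference between groups is what was measured. Of 12 pairs, 11 had both genes measured here, and Eno3 with Eno1 could not be formed. In all 11 the balance was shifted to the form named here as that of muscle or heart, in CiCM and in CM against MEF, with no overlap between arrays. Each such exact permutation test over 3 against 3 arrays gave p = 0.1, the smallest it allows (2-sided, 0.114 after Benjamini-Hochberg adjustment over 33 tests), so no pair can pass a threshold of 0.05.

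Pgam2 over Pgam1 shifted by 9.63 in CiCM and 12.12 in CM, both against MEF, Pygm over Pygl by 9.79 and 9.37, and Pygm over Pygb by 8.36 and 5.87. Pfkm shifted over Pfkl by 5.20 in CiCM and 5.44 in CM, and over Pfkp by 4.31 and 5.01. The smaller shifts that were of like size in both groups were those of Hk2 over Hk1, 0.93 and 0.92, and Aldoa over Aldoc, 2.38 and 2.91. Other shifts differed more between CiCM and CM. Slc2a4 over Slc2a1 shifted by 4.17 in CiCM and 8.66 in CM, Slc16a1 over Slc16a3 by 1.63 and 4.97, and Ldhb over Ldha by 1.56 and 4.16. Pfkfb2 over Pfkfb3 shifted by 1.21 in CiCM and 3.71 in CM.

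Set directly against CM, the CiCM balance lay outside the CM arrays for 7 of the 11 pairs. It was lower for Slc2a4 over Slc2a1 (-4.49), Slc16a1 over Slc16a3 (-3.34), Ldhb over Ldha (-2.59), Pfkfb2 over Pfkfb3 (-2.50), Pgam2 over Pgam1 (-2.49) and Pfkm over Pfkp (-0.71). For Pygm over Pygb it was higher, by 2.50. The arrays overlapped for Hk2 over Hk1 (0.01), Pfkm over Pfkl (-0.23), Aldoa over Aldoc (-0.54) and Pygm over Pygl (0.41). Of all tested genes taken singly, 68.5% did not overlap in CiCM against MEF, 75.2% in CM against MEF and 67.9% in CiCM against CM. The 7 of 11 pairs are no more than the last of these shares. No such share was taken for other pairs of genes. Some of the 11 pairs share Pfkm or Pygm, so they are not separate results.

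The Pygm and Pygb balance shows the one reversed order in full. It was 1.48, 1.85 and 2.40 on the CiCM arrays, -0.50, -0.68 and -0.57 on the CM arrays, and -7.74, -6.01 and -5.60 on the MEF arrays. The CiCM arrays thus held the highest values, and most of the gap to CM came from Pygb, which was lower in CiCM than in CM by 3.61 where Pygm was lower by 1.12.

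**Figure D3:**
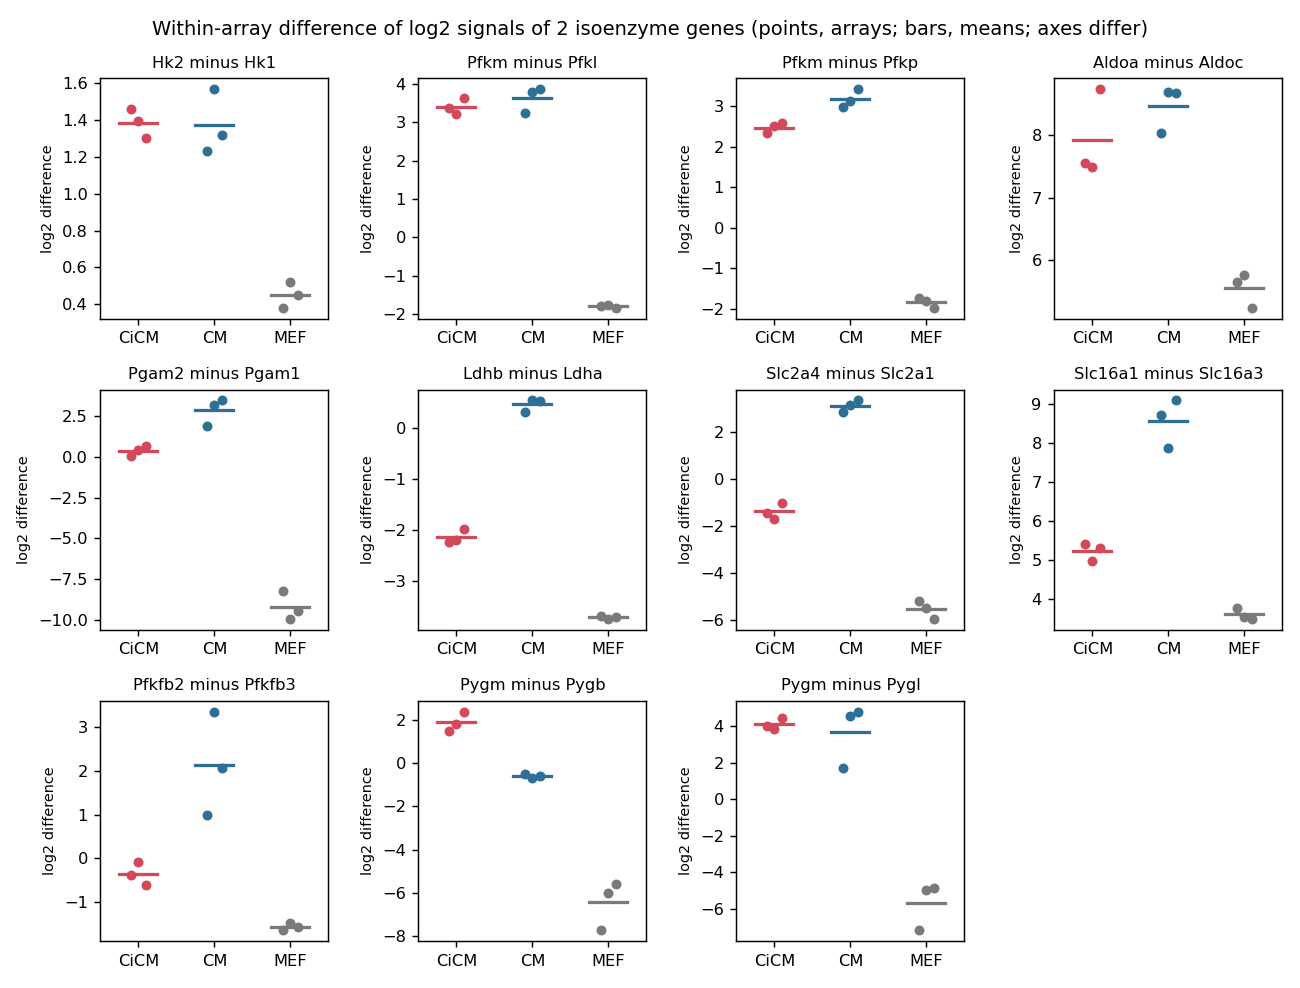
Log2 signal of the muscle or heart form minus that of its partner on each array (1 point per array, tick at the mean of 3) for the 11 pairs in CiCM, CM and MEF, each pair on its own vertical axis. Every CiCM and CM point lies above the MEF points of its pair, and for Slc2a4 over Slc2a1 CiCM lies between -1.697 and -1.003, CM between 2.85 and 3.34 and MEF between -5.96 and -5.20.

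Genes around the pathway were described by lists. Among all tested genes 23.8% were called in CiCM against MEF, 43.9% in CM against MEF and 35.5% in CiCM against CM, in either direction. Of 32 tested genes of glycolysis and glycogen outside the members, 8 were called higher and 4 lower in CiCM against MEF, with a median difference of 0.38, 14 and 6 in CM against MEF with a median of 0.80, and 5 and 11 in CiCM against CM with a median of -0.16. Fbp2, the muscle fructose bisphosphatase of the reverse pathway, had 10.51, 10.96 and 10.90 in CiCM, 9.25, 10.09 and 10.57 in CM, and 1.83, 6.08 and 4.43 in MEF. It was the top gene of both comparisons with MEF, at 6.68 and 5.86. Its MEF signals were all under the line and widely scattered, and with 32 added the differences were 4.97 and 4.17. Stbd1, which binds glycogen and links it to membranes, had 12.12, 12.16 and 12.43 in CiCM, 9.35, 8.21 and 8.19 in CM, and 9.76, 9.72 and 9.67 in MEF. CiCM was high and CM low, so that it exceeded MEF by 2.52 and CM by 3.66. Mpc1, a subunit of the carrier that brings pyruvate into mitochondria, was called higher than in MEF by 1.33 in CiCM and 3.22 in CM. Slc16a7, another monocarboxylate carrier, had 5.69, 3.13 and 2.15 in CiCM, 8.40, 8.38 and 7.75 in CM, and 6.93, 6.13 and 6.93 in MEF. CiCM was low and scattered under the line, called lower by -3.01 against MEF and -4.52 against CM, or by -1.43 and -2.69 with 32 added.

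Among 14 targets of the hypoxia factor HIF-1 outside the members, 1 was called higher and 5 lower in CiCM against MEF, with a median difference of -0.52. Ndrg1, a stress-responsive gene, was lower by -1.85, P4ha2, a collagen prolyl hydroxylase subunit, by -1.31, and Ero1a, an oxidase of the endoplasmic reticulum, by -1.28, while Egln3, an oxygen sensor, was higher by 1.63. In CM against MEF 2 were called higher and 4 lower, with a median of 0.25, the extremes being Egln1 at 2.71 and P4ha1 at -2.99. In CiCM against CM 3 were called higher and 6 lower. The 6 calls of 14 in each comparison with MEF and the 9 in CiCM against CM stand beside the shares of all tested genes given above, and in CM against MEF the count was close to that share.

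Of 16 regulators of glucose use, 7 were called higher and 3 lower in CiCM against MEF (median 0.58), 11 and 2 in CM against MEF (median 1.92), and 4 and 9 in CiCM against CM (median -1.77). Prkag3, a subunit of the energy sensor AMPK best known from skeletal muscle, had 10.80, 10.88 and 10.95 in CiCM, 7.16, 6.69 and 6.93 in CM, and 5.24, 4.51 and 4.97 in MEF. CiCM was the high group, by 5.97 against MEF and 3.95 against CM. Mlxipl, a glucose-responsive transcription factor, had 7.69, 8.04 and 8.49 in CiCM, 10.46, 10.21 and 9.71 in CM, and 2.08, 1.17 and 5.53 in MEF. Its MEF signals were under the line and scattered, and the differences of 5.15 in CiCM and 7.20 in CM, both called, were 2.72 and 4.65 with 32 added. Klf15, a transcription factor that raises Slc2a4 in muscle, had 3.59, 3.17 and 2.75 in CiCM, 10.63, 10.32 and 10.68 in CM, and 3.71, 6.24 and 1.92 in MEF. It was above the line in CM alone, and CiCM was lower than CM by -7.37, or by -5.21 with 32 added. Esrrg and Ppargc1a, regulators of oxidative metabolism, were lower in CiCM than in CM by -4.05 and -3.53, and Ppargc1a was higher in CiCM than in MEF by 1.99, or by 1.45 with 32 added. Myc, a driver of growth and glycolysis, was called lower than in MEF by -2.07 in CiCM and -3.71 in CM. Hif1a, the regulated subunit of HIF-1, was called lower in CM than in MEF by -1.499 and higher in CiCM than in CM by 1.70.

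**Figure D4:**
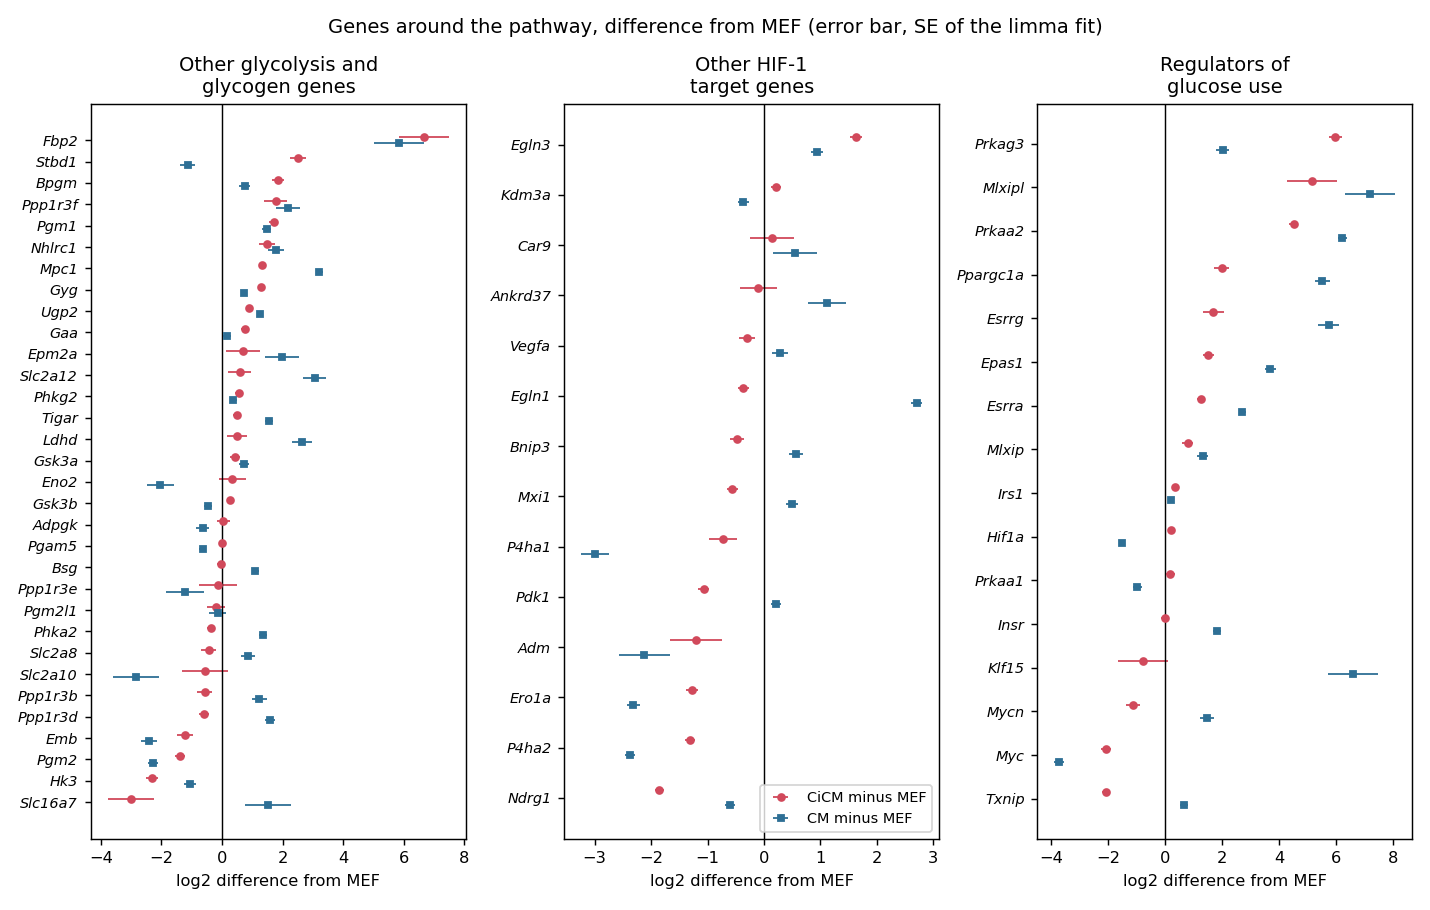
Log2 difference from MEF (horizontal axis, with the SE of the limma fit as error bar) of the tested genes of each of the 3 lists in CiCM and in CM. Fbp2 leads the first list in both groups, and Klf15 is far above MEF in CM alone, its CiCM and MEF signals both lying under the line.

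Scaling bears on all levels set across groups. After levelling on the hybridisation controls the median difference of all tested genes was -0.27 in CiCM against MEF, -0.88 in CM against MEF and 0.58 in CiCM against CM, and with arrays centred on their medians it was -0.09, -0.43 and 0.30. The share of all calls that were higher was 48.6%, 50.4% and 46.5% in these comparisons as deposited, and 35.3%, 21.4% and 75% after levelling. With arrays centred on their medians that share was 62.9% in CiCM against CM. Among the 34 genes, levelling left 13 called higher and 8 lower in CM against MEF, and 5 higher and 6 lower in CiCM against CM.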

How the data were processed

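RNA of 9 samples was hybridised to 1-colour Affymetrix arrays after amplification with a kit that labels the 3′ part of transcripts, per the labels' protocols. For 45101 probe sets the authors deposited log2 signals. The submitters' processing notes name MAS5, with no version. After 2 to the power of each deposited value the trimmed mean was 500.003 on every array, which global scaling leaves, so array-wide differences in RNA amount are not kept. Within a group, arrays correlated at 0.930 or more across tested genes, which are not independent replicates. Detection calls and scan dates were not analysed here, and batch and group cannot be told apart here. The number of arrays limits the precision, and p-values measure the spread between these samples.

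The genome build of the probe design is not given in the sources used here. Probe sets were named from the platform annotation held by GEO, some of it possibly old, where 34958 had 1 symbol, 932 several and 64 were controls, and no symbol needed an update through its Entrez identifier. A gene was tested if its highest group mean reached 6.58, the median of the table. Of the 34 members 19 had several probe sets. Among called members with several probe sets past that line, all probe sets had 1 sign in 9 of 9, 9 of 9 and 6 of 6 genes over the 3 comparisons. Uncalled members are not in these counts, and some had probe sets past the line that differed in sign. These were Hk1 in CiCM against MEF, Pfkl, Pfkp, Pgk1 and Gys1 in CM against MEF, and Pfkp and Pgk1 in CiCM against CM.

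Differences were tested with limma (2-sided, version 3.58.1 under R 4.3.3), fitting all 9 arrays together by lmFit without covariates and moderating variances by eBayes with trend, with Benjamini-Hochberg adjustment over all tested genes. Calls needed an adjusted p under 0.05 together with a log2 difference of at least 1. The fit was also run on simulated data with independent normal noise and fewer changed genes than here. That setting differs from these data, so nothing is drawn from it. Muscle or heart forms and general forms are the first and second genes of the pairs named in the text and of the unmeasured pair of Eno3 with Eno1. The members, the lists, the markers and the pairs were chosen with earlier results of these data known. Every member was to be named. Of each wider list up to 4 called genes per direction and comparison, by size, and of each marker list up to 4 genes could be named. Adipoq, Cidec, Nppa and Myl7 were picked after their values were seen, and so was the use of the control sets for Gapdh. Plots were made in Python 3.11.15 (matplotlib 3.10.9).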

Additional observations from a re-analysis of the deposited data

How the results depend on the processing

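Alternatives were 32 or a larger constant added to the linear signals, no filter or a stricter one at the 75th percentile of the table (8.91), quantile normalization, centring on array medians, levelling on 18 hybridisation control probe sets, the mean over probe sets, array weights, a fit without the other group or without the variance trend, no minimum difference, a replicate block and leaving out each array. No called member turned its direction under any of them. Over all members, comparisons and alternatives other than a left-out array, a result kept its side of the threshold 1219 times, gained a call 42 times and lost it 42 times. With 1 array left out it was kept 884 times, gained 15 times and lost 19 times. The 5 members lower in CiCM against MEF were 3 with the larger constant and 3 with the mean over probe sets. The 5 lower in CM against MEF were 3 with the stricter filter, 8 after levelling and 3 with the mean over probe sets. The 2 higher in CiCM against CM were 1 with the larger constant, 1 with the stricter filter, 4 after centring, 5 after levelling and 5 with no minimum difference, and the 10 lower were 6 after centring, 6 after levelling and 17 with no minimum difference. Counts with an array left out stayed within 1.5 times the full count, with 8 to 12 lower in CiCM against CM. Pairs without overlap numbered 10, 10 and 6 with the mean over probe sets, against 11, 11 and 7.

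With the replicate number as a block, 12 members were higher and 5 lower in CiCM against MEF, 18 and 5 in CM against MEF, and 2 and 11 in CiCM against CM. Samples of the same number deviated together at correlations between -0.016 and 0.067, and those of different numbers at correlations between -0.044 and 0.029. The labels give no pairing, and with 3 arrays per group these values cannot show that there is none. Signals under the line, such as Pgam2 and Pygm in MEF, leave the size of a difference open to how low values are treated. The causes of these changes were not tested.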
